A study of Homo sapiens with 18 samples.

Results

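The 43 genes described here encode the proteins that license replication origins, open and copy DNA at the fork, supply deoxynucleotides and rebuild chromatin behind the fork. They were chosen by symbol, matched through the Entrez gene identifiers of the deposited tables, and make up 43 of 25343 listed genes. All 43 were measured well enough to be among the 14074 genes tested. The samples were xenograft tumours of HCT116, a human colon cancer cell line, made with a knockout of PTDSS2 (PTDSS2-KO). Tumour-bearing mice received DS55980254 by mouth at 10 mg/kg (6 libraries) or 30 mg/kg (6 libraries), or only the 0.5% methylcellulose vehicle (6 libraries), and tumours were taken 24 h after dosing. All 3 groups thus carried the same knockout and were given the same vehicle, and no tumour with intact PTDSS2 was analysed here, so the comparisons concern dosing within one genotype. The series title presents the compound class as inhibitors of PTDSS1, a phosphatidylserine synthase whose loss is poorly tolerated by cells that lack its paralog PTDSS2. The labels do not say whether the knockout line was 1 clone, or whether each library came from a separate mouse, so p-values measure the spread between these libraries.

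Replication is prepared in G1, when the origin recognition complex, CDC6 and CDT1 load the ring-shaped MCM2 to MCM7 helicase onto DNA, a step called licensing. In S phase, CDC45 and the GINS complex join the ring and activate it, and polymerases alpha, delta and epsilon copy the separated strands with the sliding clamp PCNA, while ribonucleotide reductase and thymidylate synthase keep up the supply of precursors. Transcription of many of these genes is controlled by E2F factors and peaks around the G1 to S transition, and they serve widely as markers of proliferating cells. In RNA from whole tumours, fewer cells expressing a gene and less of its RNA per cell cannot be told apart.

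Libraries were made from 5 ng of total RNA. Deposited expected counts summed to 433989 in replicate 2 of 10 mg/kg and to between 3435435 and 8538793 in the other 17 libraries. That shallow library had a mean correlation of 0.7899 with the others, whose own values lay between 0.9472 and 0.971, and its median count over the 43 genes was 20. Together the 43 genes took 0.292% to 0.361% of all counts at 10 mg/kg and 0.271% to 0.42% at 30 mg/kg, against 0.371% to 0.417% in vehicle tumours. PTDSS2 remained at 7.11 to 13.9 CPM, counts scaled to library size, at 10 mg/kg and 5.32 to 13.4 CPM at 30 mg/kg, against 4.97 to 12 CPM in vehicle tumours. A gene count does not show whether the remaining transcript carries the edit, so it does not check the genotype. Median PTDSS1 was 64.6 CPM in the 10 mg/kg group and 67.4 CPM in the 30 mg/kg group, against 78.1 CPM in vehicle tumours (adjusted p = 0.379 and 0.62). Of 10 epithelial markers, 6 passed the filter on low counts. The 10 summed to 3998 to 7254 CPM at 10 mg/kg and 5517 to 6967 CPM at 30 mg/kg, against 5203 to 6873 CPM in vehicle tumours, mostly KRT8, KRT19 and KRT18. CEACAM5, VIL1 and LGALS4 had means of at most 3.54 CPM at 10 mg/kg, 0.457 CPM at 30 mg/kg and 0.344 CPM in vehicle tumours. CEACAM6 was at 0 in all vehicle libraries. Of the markers of other cells, 6 fibroblast genes summed to 73.1 to 317 CPM at 10 mg/kg, highest in replicate 2 and next at 106 CPM. They summed to 69.3 to 92.5 CPM at 30 mg/kg, against 61.8 to 109 CPM in vehicle tumours. COL1A1 made up most of the group means, at 113 and 78.9 CPM at 10 and 30 mg/kg and 86.8 CPM in vehicle tumours. Every other gene of the list had means of at most 5 and 2.72 CPM at 10 and 30 mg/kg. In vehicle tumours these were at most 2.67 CPM, with DCN at 0. The 4 endothelial markers summed to 3.45 to 85.6 CPM at 10 mg/kg, highest in replicate 2 and next at 18.2 CPM, and to 4.62 to 14.8 CPM at 30 mg/kg, highest in replicate 5, against 3.66 to 10.8 CPM in vehicle tumours. The 5 leukocyte markers summed to 10.1 to 34.2 CPM at 10 mg/kg, again highest in replicate 2, and to 9.08 to 14.6 CPM at 30 mg/kg, against 8.73 to 16.5 CPM in vehicle tumours. A sum over 383 olfactory receptor genes that did not pass the filter on low counts was 20 to 1636 CPM at 10 mg/kg, highest in replicate 2 and next at 454 CPM in another library. It was 21.1 to 296 CPM at 30 mg/kg, highest in replicate 5 and next at 65.8 CPM, against 22.8 to 68.9 CPM in vehicle tumours.

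The stretches upstream of the transcription start are shown for 7 genes because they let the measured genes be read beside the E2F-type words that many of their promoters hold. Each is the 250 bases before the start of the RefSeq gene (build GRCh38.p14), written 5′ to 3′ on the gene's own strand. Capitals mark any of the words TTTCCCGC, TTTCGCGC, TTTGCCGC and TTTGGCGC or their reverse complements, and such words may overlap each other.
CDT1, licensing factor, chr16:88803539-88803788, plus strand: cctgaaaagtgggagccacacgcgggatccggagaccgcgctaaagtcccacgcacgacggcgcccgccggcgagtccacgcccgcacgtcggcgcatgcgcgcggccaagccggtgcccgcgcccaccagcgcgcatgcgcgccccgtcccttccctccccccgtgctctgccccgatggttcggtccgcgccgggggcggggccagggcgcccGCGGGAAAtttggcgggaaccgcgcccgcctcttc
MCM7, helicase subunit, chr7:100101398-100101647, minus strand: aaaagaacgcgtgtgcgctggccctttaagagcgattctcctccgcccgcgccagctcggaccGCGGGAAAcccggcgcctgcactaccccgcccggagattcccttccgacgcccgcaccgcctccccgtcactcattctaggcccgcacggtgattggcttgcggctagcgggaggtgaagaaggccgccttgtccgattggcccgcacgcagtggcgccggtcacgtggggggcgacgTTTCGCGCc
PCNA, sliding clamp, chr20:5126623-5126872, minus strand: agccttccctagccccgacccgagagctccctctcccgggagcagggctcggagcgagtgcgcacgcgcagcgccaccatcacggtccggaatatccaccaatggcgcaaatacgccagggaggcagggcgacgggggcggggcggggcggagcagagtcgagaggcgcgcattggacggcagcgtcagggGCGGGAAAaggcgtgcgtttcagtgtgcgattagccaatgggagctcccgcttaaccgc
POLE, leading strand polymerase, chr12:132687343-132687592, minus strand: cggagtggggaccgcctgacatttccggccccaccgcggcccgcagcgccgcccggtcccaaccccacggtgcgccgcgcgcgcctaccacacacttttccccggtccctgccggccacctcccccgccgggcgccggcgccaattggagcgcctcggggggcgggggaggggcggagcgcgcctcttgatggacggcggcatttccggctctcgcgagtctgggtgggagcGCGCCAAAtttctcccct
TYMS, thymidylate synthase, chr18:657403-657652, plus strand: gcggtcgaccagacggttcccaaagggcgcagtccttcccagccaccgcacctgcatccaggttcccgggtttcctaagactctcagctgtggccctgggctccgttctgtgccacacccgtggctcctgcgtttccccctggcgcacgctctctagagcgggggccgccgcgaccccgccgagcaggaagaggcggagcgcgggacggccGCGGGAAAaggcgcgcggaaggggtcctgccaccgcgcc
FEN1, flap endonuclease, chr11:61792661-61792910, plus strand: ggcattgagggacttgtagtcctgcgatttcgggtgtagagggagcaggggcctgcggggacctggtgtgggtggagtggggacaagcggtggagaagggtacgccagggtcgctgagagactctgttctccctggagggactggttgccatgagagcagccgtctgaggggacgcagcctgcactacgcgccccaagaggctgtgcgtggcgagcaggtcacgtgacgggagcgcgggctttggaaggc
POLD2, accessory subunit of polymerase delta, chr7:44123549-44123798, minus strand: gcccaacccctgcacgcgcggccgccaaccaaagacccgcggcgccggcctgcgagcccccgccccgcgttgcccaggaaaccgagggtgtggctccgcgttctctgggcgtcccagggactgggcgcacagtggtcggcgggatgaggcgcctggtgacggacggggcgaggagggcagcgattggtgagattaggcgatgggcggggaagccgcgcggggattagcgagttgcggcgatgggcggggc
The MCM7 stretch held 2 such words, those of CDT1, PCNA, POLE and TYMS held 1 each, and in those of FEN1 and POLD2 these letters were absent. RefSeq entries matched 37 of the 43 genes; MCM4, MCM5, GINS4, POLD3, RPA2 and RPA3 are named only. Over windows of 300 bases, from 250 before to 50 after the start, 18 of the 37 promoters (48.6%) held at least 1 word, against 588 of 11060 promoters of the genes tested (5.32%) and 908 of all 27305 promoters in the table (3.33%). The word CCAAT, on either strand, stood in 22 of the 37 (59.5%), against 36.8% of the promoters of genes tested. A match describes letters and is not a measured binding site.

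Most of the 43 genes were at lower mean levels in dosed tumours, and none passed the threshold of the test across all genes. The log2 fold change was under 0 for 40 of 43 genes at 10 mg/kg, where 51.2% of all genes tested were under 0, with a median of -0.332 (a fold of 0.795) against -0.006 over all genes. It was under 0 for 41 of 43 genes at 30 mg/kg, where the share of all genes was 50.2%, with a median of -0.280 against -0.001. With edgeR's quasi-likelihood test and Benjamini-Hochberg adjustment over all genes, 0 of 43 were past an adjusted p of 0.05 at 10 mg/kg (0.469% of all genes tested were) and 0 of 43 at 30 mg/kg (0.618% of all genes). At an unadjusted p under 0.05, 26 of the 43 were lower at 10 mg/kg, where 4.08% of all genes were lower, and 22 were lower at 30 mg/kg, where the share was 3.72%. None was higher by that measure at either dose, where 5.42% and 4.18% of all genes were. The count at 30 mg/kg dropped to 11, 12 and 13 when its replicates 1, 2 and 4 were each left out. The 2 comparisons share the vehicle libraries and are therefore not independent of each other.

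**Figure D1:**
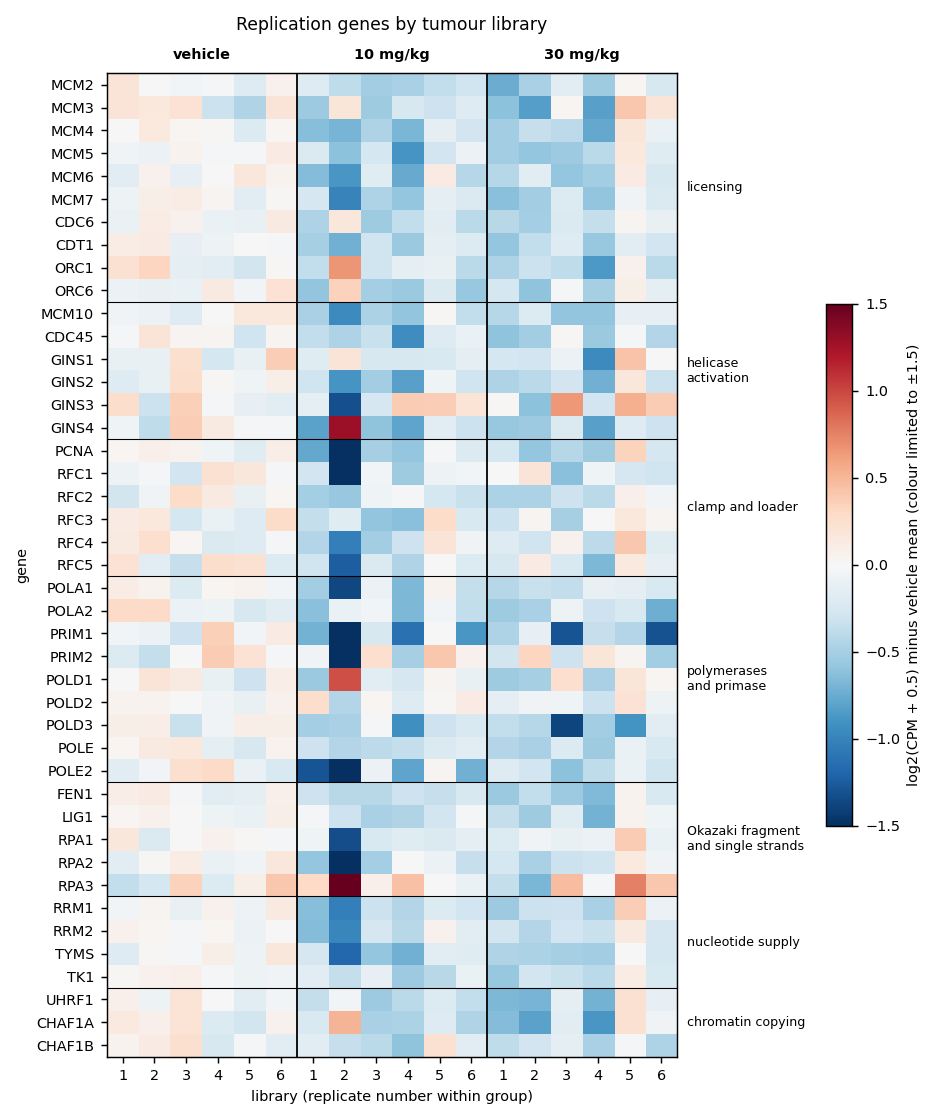
Level of each of the 43 genes (rows, by role) in each of the 18 libraries (columns, by replicate number, in dose order), as log2(CPM + 0.5) minus the mean of the 6 vehicle libraries. Blue is below and red above the vehicle mean. Most dosed columns are blue over most rows, replicate 2 of 10 mg/kg holds both the darkest blue and the darkest red cells, and replicate 5 of 30 mg/kg is red over most rows.

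The plot of all 43 genes by library shows that the dosed libraries were not alike. The geometric mean level of the 43 genes, set to 100% at the vehicle mean, ranged from 64.8% to 94.1% at 10 mg/kg with a median of 78.4%, and from 72.1% to 106% at 30 mg/kg with a median of 79.9%, against 94.3% to 104% in vehicle tumours. At 10 mg/kg every library was below the lowest vehicle library, though the closest 2 stood at 94.1% and 94.3%. Replicate 5 of 30 mg/kg, at 106%, stood above all vehicle libraries, and the next of its group was at 87.4%. That library had the highest level of its group for 33 of the 43 genes. Replicate 2 of 10 mg/kg was lowest of its group for 24 genes and highest for 10. Each of these libraries also had the largest olfactory receptor and endothelial marker sums of its own group, and another 10 mg/kg library had an olfactory receptor sum of 454 CPM, above that of replicate 5 of 30 mg/kg. The part of these sums in the replication genes' levels was not tested. Without replicate 2 of 10 mg/kg the median log2 fold change at 10 mg/kg was -0.32, and without replicate 5 of 30 mg/kg the median at 30 mg/kg was -0.364.

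**Figure D2:**
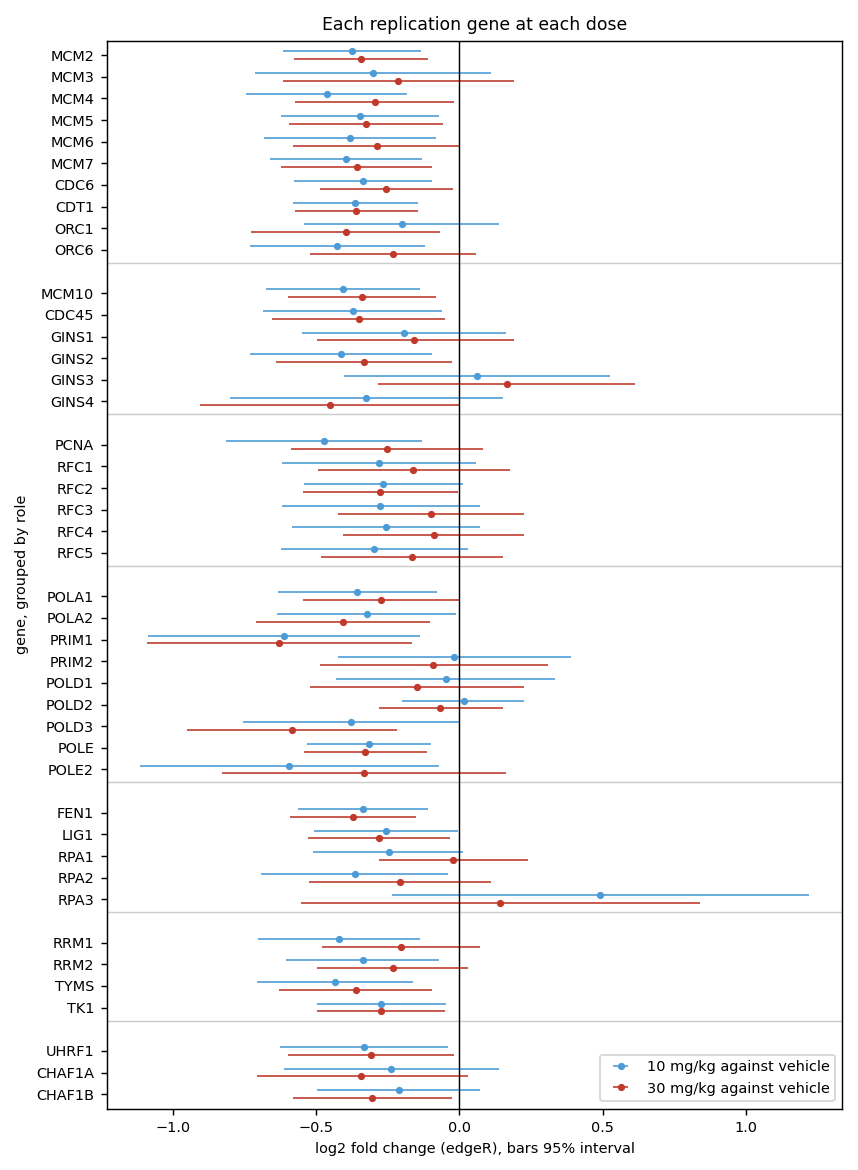
Log2 fold change of each gene at 10 mg/kg and at 30 mg/kg against vehicle, with 95% intervals from edgeR's quasi-likelihood fit (n = 6 libraries in each group), genes grouped by role. Points of both doses lie left of 0 for nearly all genes, and GINS3, RPA3 and POLD2 lie right of it for at least 1 dose.

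Licensing genes had lower mean levels at both doses, and the 10 of them had medians of -0.369 at 10 mg/kg and -0.310 at 30 mg/kg on the log2 scale. At an unadjusted p under 0.05, 8 of 10 were lower at 10 mg/kg and 7 of 10 at 30 mg/kg. The shares of all genes lower by that measure, 4.08% and 3.72%, also apply to the classes and lists below. CDT1 (Entrez gene 81620, chromosome 16), which brings the MCM ring to origins, was at 59.9, 75.5 and 89.9 CPM (lowest, median and highest) at 10 mg/kg and at 66.1, 79.0 and 88.5 CPM at 30 mg/kg, against 91.0, 98.9 and 108 CPM in vehicle tumours. All 12 dosed libraries were below all 6 vehicle libraries, and CDT1 was the only one of the 43 genes for which this held at 30 mg/kg, where 0.476% of all genes had every dosed library below every vehicle library. Its log2 fold change was -0.36 ± 0.11 (SE) at 10 mg/kg (adjusted p = 0.199) and -0.36 ± 0.10 at 30 mg/kg (adjusted p = 0.159), and its adjusted p was 0.17 in the test of any difference among the 3 groups, the smallest of the 43. In that test 0 of 43 genes passed the threshold, where 0.568% of all genes did. An unadjusted p under 0.05 was found for 23 of the 43, and for 1069 of all 14074 genes tested. At 10 mg/kg the same separation was seen for 4 genes, CDT1, FEN1, RRM1 and TK1, where 0.469% of all genes showed it. A count of this kind needs every library to separate, so leaving out a library tends to raise it, for any set of genes. The share of all genes is not given here for such reduced sets. At 10 mg/kg the count was 7 without replicate 2, 11 without replicate 5 and 9 without vehicle replicate 5. At 30 mg/kg it was 12 without replicate 5, 5 without vehicle replicate 3, and 2 without replicate 2, without replicate 6 or without vehicle replicate 2.

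The subunits of the MCM ring lay close together. Over MCM2 to MCM7 the median log2 fold change was -0.378 at 10 mg/kg and -0.310 at 30 mg/kg. MCM4 had the lowest value at 10 mg/kg, -0.46 ± 0.14, and MCM3 the highest, -0.30 ± 0.20. At 30 mg/kg the subunits ran between -0.36 ± 0.13 for MCM7 and -0.21 ± 0.19 for MCM3. MCM2 was at 116, 129 and 146 CPM at 10 mg/kg and at 99.6, 130 and 170 CPM at 30 mg/kg, against 146, 165 and 191 CPM in vehicle tumours, with overlap at both doses. MCM7, whose promoter held 2 words, was at 137, 215 and 250 CPM at 10 mg/kg and at 177, 214 and 264 CPM at 30 mg/kg, against 244, 280 and 297 CPM in vehicle tumours. In each dosed group, 5 of its 6 libraries were below every vehicle library. Of the loaders, CDC6 had log2 fold changes of -0.34 ± 0.12 and -0.26 ± 0.11 at 10 and 30 mg/kg. ORC1, the largest subunit of the origin recognition complex, had -0.20 ± 0.17 and -0.40 ± 0.16, and ORC6, its smallest subunit, had -0.43 ± 0.15 and -0.23 ± 0.14. For each of these loaders the shallow replicate 2 was highest at 10 mg/kg. There CDC6, ORC1 and ORC6 were at 77.0, 42.8 and 40.6 CPM, where the group medians were 52.3, 23.1 and 21.8 CPM.

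Helicase activation genes had medians of -0.349 at 10 mg/kg and -0.336 at 30 mg/kg over 6 members, with 3 lower at an unadjusted p under 0.05 at each dose. MCM10 (Entrez gene 55388, chromosome 10), which helps the loaded ring to start unwinding, was at 27.8, 38.8 and 54.7 CPM at 10 mg/kg and at 35.7, 43.6 and 49.8 CPM at 30 mg/kg, against 47.3, 53.4 and 60.8 CPM in vehicle tumours. In 5 of 6 libraries at 10 mg/kg and 4 of 6 at 30 mg/kg it was below every vehicle library. Its log2 fold changes were -0.41 ± 0.13 (adjusted p = 0.261) and -0.34 ± 0.13 (adjusted p = 0.404). CDC45, which completes the active helicase together with GINS, had log2 fold changes of -0.37 ± 0.15 and -0.35 ± 0.15 at 10 and 30 mg/kg.

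The 4 GINS subunits, which act as one complex, had differing point estimates. Differences between them were not tested, and their 95% intervals overlapped at both doses. GINS2 had log2 fold changes of -0.41 ± 0.15 and -0.33 ± 0.15 at 10 and 30 mg/kg, GINS4 had -0.33 ± 0.23 and -0.45 ± 0.22, and GINS1 had -0.19 ± 0.17 and -0.16 ± 0.17. GINS3 (Entrez gene 64785, chromosome 16) had the most positive value of the 43 genes at 30 mg/kg, 0.17 ± 0.22 (adjusted p = 0.953), and 0.06 ± 0.23 at 10 mg/kg (adjusted p = 0.96). Its libraries were at 4.28, 11.8 and 15.1 CPM at 10 mg/kg and at 7.31, 13.4 and 18.2 CPM at 30 mg/kg, against 9.08, 10.9 and 14.8 CPM in vehicle tumours, so both dosed groups spread past the vehicle range in both directions. GINS3 was the least abundant of the 43 genes per length in vehicle tumours, and the interval of its fold at 30 mg/kg holds both a decrease and an increase. GINS4 reached 64.2 CPM in replicate 2 of 10 mg/kg, the shallow library, where no other library passed 33.6 CPM.

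**Figure D3:**
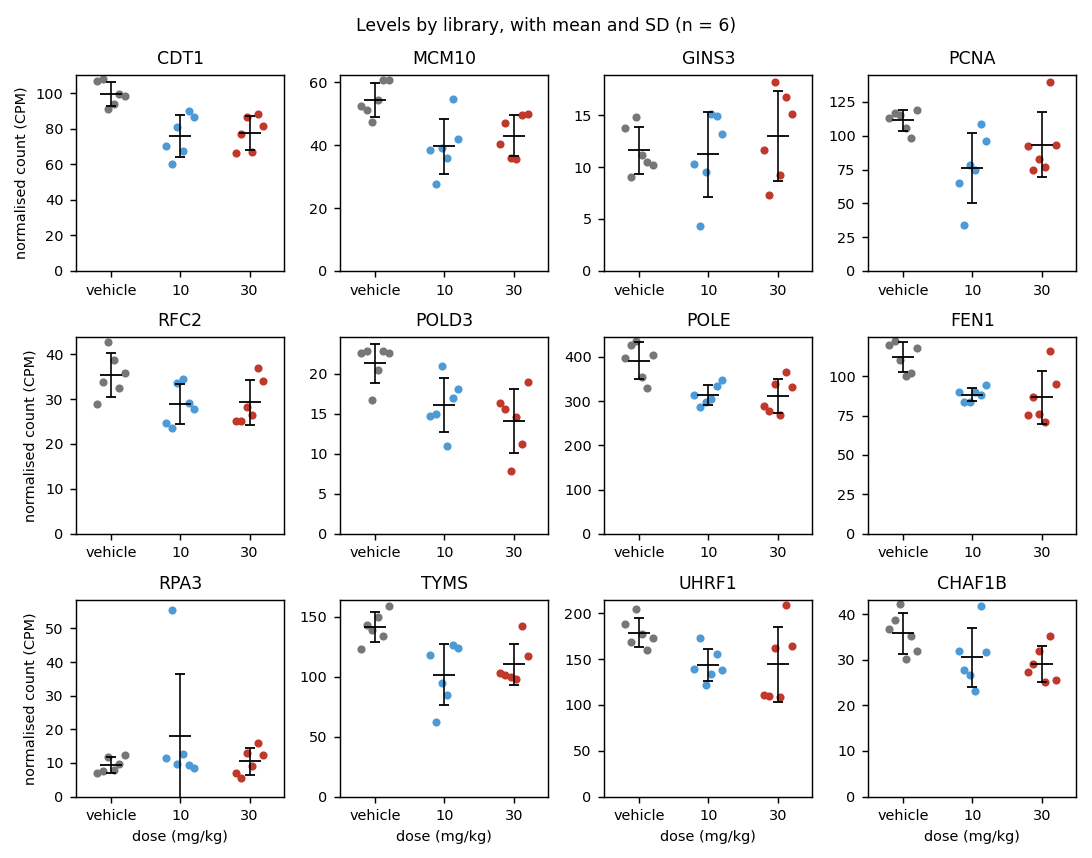
Normalised counts (CPM, TMM-scaled) of the 12 genes given in full, in every library, by dose. Points are libraries, the horizontal bar is the mean and the whiskers are 1 SD (n = 6 for each group), and each vertical axis starts at 0, which cuts the lower whisker of RPA3 at 10 mg/kg. CDT1 separates the 12 dosed from the 6 vehicle libraries, whereas RPA3 and GINS3 overlap throughout and RPA3 has 1 library at 55.6 CPM.

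The clamp and its loader had the smallest shift at 30 mg/kg among the 7 role classes. Their 6 members had medians of -0.279 at 10 mg/kg and -0.164 at 30 mg/kg, and 1 was lower at an unadjusted p under 0.05 at each dose, a different gene at each. PCNA (Entrez gene 5111, chromosome 20), the ring that holds polymerases on DNA, was at 34.2, 76.3 and 109 CPM at 10 mg/kg and at 74.4, 87.7 and 140 CPM at 30 mg/kg, against 98.3, 114 and 119 CPM in vehicle tumours. In each dosed group 5 of 6 libraries were below every vehicle library, and replicate 5 of 30 mg/kg, at 140 CPM, was above all of them. On the log2 scale its fold changes were -0.47 ± 0.17 (adjusted p = 0.322) and -0.25 ± 0.16 (adjusted p = 0.818). RFC2 (Entrez gene 5982, chromosome 7), a subunit of the complex that opens the clamp, was at 23.5, 28.5 and 34.4 CPM at 10 mg/kg and at 25.1, 27.3 and 37.0 CPM at 30 mg/kg, against 28.9, 34.8 and 42.8 CPM in vehicle tumours, with overlap at both doses. The log2 fold changes of this gene were -0.27 ± 0.14 (adjusted p = 0.554) and -0.28 ± 0.13 (adjusted p = 0.61). The loader subunits RFC1, RFC3, RFC4 and RFC5 lay between -0.30 and -0.26 at 10 mg/kg and between -0.17 and -0.09 at 30 mg/kg.

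Polymerase and primase genes had differing point estimates, and differences between them were not tested. Over the 9 of them the medians were -0.324 at 10 mg/kg and -0.328 at 30 mg/kg, with 6 and 5 lower at an unadjusted p under 0.05. POLE (Entrez gene 5426, chromosome 12), the catalytic subunit of the leading strand polymerase epsilon, was at 287, 309 and 348 CPM at 10 mg/kg and at 269, 311 and 365 CPM at 30 mg/kg, against 329, 401 and 436 CPM in vehicle tumours. It was below every vehicle library in 4 of 6 libraries at 10 mg/kg and 3 of 6 at 30 mg/kg. Fold changes on the log2 scale were -0.32 ± 0.11 (adjusted p = 0.28) and -0.33 ± 0.10 (adjusted p = 0.254). Its partner POLE2 had -0.59 ± 0.25 and -0.33 ± 0.24, from levels of at most 13.4 CPM and a count of 0 in replicate 2 of 10 mg/kg. In the polymerase alpha complex, which lays down primers, POLA1 had -0.36 ± 0.14 and -0.28 ± 0.13, and POLA2 had -0.32 ± 0.15 and -0.41 ± 0.15. Of the 2 primase subunits, PRIM1 had the lowest value of all 43 genes at both doses, -0.61 ± 0.23 and -0.63 ± 0.22 (adjusted p = 0.377 and 0.362), whereas PRIM2 had -0.02 ± 0.20 and -0.09 ± 0.19. PRIM1 was at 4.28, 11.8 and 20.5 CPM at 10 mg/kg and at 8.09, 15.0 and 18.9 CPM at 30 mg/kg, against 16.5, 20.1 and 26.6 CPM in vehicle tumours.

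Polymerase delta, which copies the lagging strand, had smaller point estimates for its catalytic subunit POLD1 and for POLD2 than for POLD3. This difference was not tested. POLD1 had log2 fold changes of -0.05 ± 0.19 and -0.15 ± 0.18 at 10 and 30 mg/kg, and POLD2 had 0.02 ± 0.11 and -0.07 ± 0.10. At 10 mg/kg POLD1 reached 165 CPM in the shallow replicate 2, where the group median was 76.4 CPM. In vehicle tumours POLD1 was at 67.7, 86.8 and 95.6 CPM. The 95% intervals of the fold of POLD1 were 0.742 to 1.26 at 10 mg/kg and 0.696 to 1.17 at 30 mg/kg. The 95% intervals of the fold of POLD2 were 0.87 to 1.17 at 10 mg/kg and 0.824 to 1.11 at 30 mg/kg. POLD3 (Entrez gene 10714, chromosome 11), an accessory subunit of the same enzyme, was at 11.0, 16.0 and 21.0 CPM at 10 mg/kg and at 7.89, 15.1 and 19.0 CPM at 30 mg/kg, against 16.7, 22.6 and 22.8 CPM in vehicle tumours. It was below every vehicle library in 3 of 6 libraries at 10 mg/kg and 5 of 6 at 30 mg/kg, and 1 vehicle library, replicate 3, was itself low. Its log2 fold changes were -0.38 ± 0.18 (adjusted p = 0.526) and -0.59 ± 0.18 (adjusted p = 0.215). The remaining delta subunit, POLD4, came from the list of other fork genes and had higher mean levels in dosed tumours. It was at 25.8, 31.8 and 53.5 CPM at 10 mg/kg and at 25.2, 30.8 and 39.7 CPM at 30 mg/kg, against 19.6, 23.5 and 25.4 CPM in vehicle tumours (log2 fold changes 0.45 ± 0.16 and 0.43 ± 0.15, adjusted p = 0.308 and 0.339), and its 10 mg/kg libraries did not overlap the vehicle libraries. Of all 14074 genes tested, 97 had every 10 mg/kg library above every vehicle library. POLD4 was singled out after its values were seen.

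Among the genes that process Okazaki fragments and coat single strands, the nuclease and the ligase had lower mean levels. Point estimates of the single-strand binding subunits differed in sign, and differences between the subunits were not tested. FEN1 (Entrez gene 2237, chromosome 11), which trims the flaps of Okazaki fragments, was at 83.4, 88.8 and 94.5 CPM at 10 mg/kg and at 70.6, 81.3 and 116 CPM at 30 mg/kg, against 100, 114 and 122 CPM in vehicle tumours. All 6 libraries at 10 mg/kg and 5 of 6 at 30 mg/kg were below every vehicle library, and the exception was replicate 5 of 30 mg/kg. On the log2 scale its fold changes were -0.34 ± 0.11 (adjusted p = 0.269) and -0.37 ± 0.11 (adjusted p = 0.159). Without replicate 5 of 30 mg/kg the value at 30 mg/kg was -0.467 with an adjusted p of 0.0161, and FEN1 was then the 1 gene of the 43 past the threshold, where 0.612% of all genes were. LIG1, which seals the fragments, had -0.26 ± 0.12 and -0.28 ± 0.12 at 10 and 30 mg/kg.

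The trimer that coats single-stranded DNA had -0.25 ± 0.13 and -0.02 ± 0.13 for RPA1, and -0.36 ± 0.16 and -0.21 ± 0.15 for RPA2. RPA3 (Entrez gene 6119, chromosome 7), its smallest subunit, was at 8.53, 10.6 and 55.6 CPM at 10 mg/kg and at 5.55, 10.7 and 15.9 CPM at 30 mg/kg, against 7, 8.87 and 12.4 CPM in vehicle tumours. All 3 groups overlapped, and the 55.6 CPM came from the shallow replicate 2. The log2 fold changes of this gene were 0.49 ± 0.35 (adjusted p = 0.698) and 0.14 ± 0.34 (adjusted p = 0.987). The first was the most positive value of the 43 genes at 10 mg/kg, and over the fits that left out 1 library it ran from 0.134 to 0.643. Over those fits the value at 30 mg/kg ran from -0.004 to 0.272.

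All 4 nucleotide supply genes were lower at an unadjusted p under 0.05 at 10 mg/kg and 2 of 4 at 30 mg/kg, with medians of -0.379 and -0.254. TYMS (Entrez gene 7298, chromosome 18), which makes thymidylate and is the target of fluoropyrimidines, was at 62.0, 106 and 126 CPM at 10 mg/kg and at 97.9, 102 and 142 CPM at 30 mg/kg, against 123, 141 and 159 CPM in vehicle tumours. It was below every vehicle library in 4 of 6 libraries at 10 mg/kg and in 5 of 6 at 30 mg/kg. Fold changes on the log2 scale were -0.43 ± 0.13 (adjusted p = 0.221) and -0.36 ± 0.13 (adjusted p = 0.365). RRM1 and RRM2 encode the large and small subunits of ribonucleotide reductase. RRM1 was at 44.9, 70.8 and 79.8 CPM at 10 mg/kg and at 63.2, 73.9 and 119 CPM at 30 mg/kg, against 85.4, 91.9 and 101 CPM in vehicle tumours, and its 6 libraries at 10 mg/kg did not overlap the vehicle libraries. Its log2 fold changes were -0.42 ± 0.14 and -0.20 ± 0.13 (adjusted p = 0.269 and 0.828). RRM2 had -0.34 ± 0.13 and -0.23 ± 0.13. TK1, the salvage kinase for thymidine, was at 105, 128 and 143 CPM at 10 mg/kg and at 103, 124 and 166 CPM at 30 mg/kg, against 145, 153 and 162 CPM in vehicle tumours. Again the 10 mg/kg libraries did not overlap the vehicle libraries, and 1 library at 30 mg/kg was above them all.

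The 3 genes that copy chromatin had medians of -0.240 at 10 mg/kg and -0.309 at 30 mg/kg. UHRF1 (Entrez gene 29128, chromosome 19), which recognises half-methylated DNA and brings in the maintenance methyltransferase, was at 122, 139 and 173 CPM at 10 mg/kg and at 109, 137 and 209 CPM at 30 mg/kg, against 160, 175 and 205 CPM in vehicle tumours. At 30 mg/kg it spanned the whole vehicle range, with 3 libraries below it and 1 above. On the log2 scale its fold changes were -0.33 ± 0.14 (adjusted p = 0.456) and -0.31 ± 0.14 (adjusted p = 0.573). CHAF1B (Entrez gene 8208, chromosome 21), a subunit of the histone chaperone CAF-1, was at 23.2, 29.7 and 41.8 CPM at 10 mg/kg and at 25.2, 28.1 and 35.1 CPM at 30 mg/kg, against 30.1, 35.9 and 42.1 CPM in vehicle tumours, with overlap at both doses. The log2 fold changes of this gene were -0.21 ± 0.14 (adjusted p = 0.66) and -0.31 ± 0.14 (adjusted p = 0.553). CHAF1A, the large subunit, had -0.24 ± 0.18 and -0.34 ± 0.18. Its highest library at 10 mg/kg was the shallow replicate 2, at 218 CPM, where the group median was 122 CPM.

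The 3 main roles had medians on the same side of 0. The 16 origin genes, licensing and helicase activation together, had median log2 fold changes of -0.368 at 10 mg/kg and -0.329 at 30 mg/kg. The 20 polymerase and fork genes had -0.289 and -0.231, and the 4 nucleotide supply genes had -0.379 and -0.254. Differences between the classes were not tested. By library, the origin genes were at 70.1% to 91.6% of the vehicle mean at 10 mg/kg and 65.3% to 108% at 30 mg/kg, against 92.7% to 106% in vehicle tumours. The polymerase and fork genes were at 52.8% to 97.0% and 79.1% to 103%, against 96.2% to 103% in vehicle tumours, and the nucleotide supply genes at 54.2% to 88.3% and 72.6% to 111%, against 94.7% to 104%. Replicate 2 set the lowest value at 10 mg/kg for the last 2 of these classes, and replicate 5 set the highest value at 30 mg/kg for all 3.

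**Figure D4:**
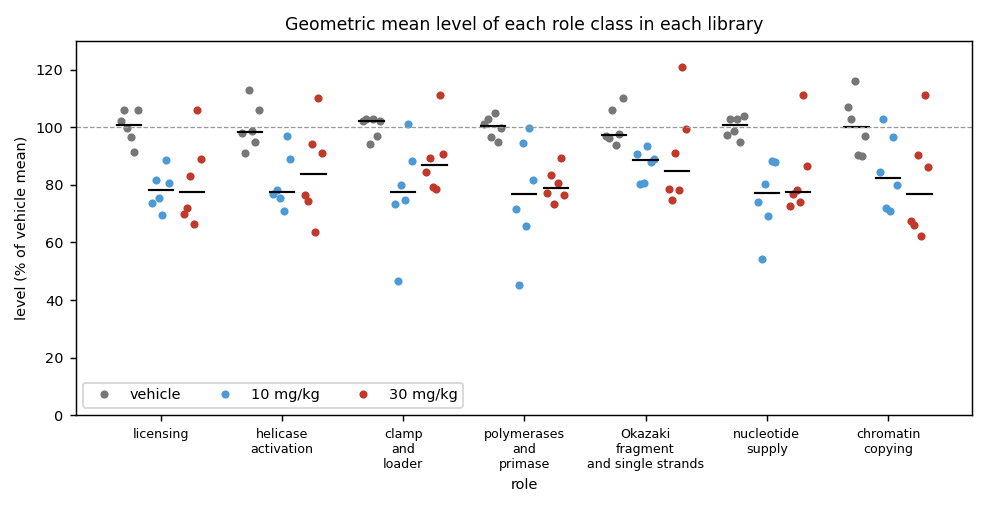
Geometric mean level of each role class in each library, as a percentage of the vehicle mean (dashed line at 100%), with vehicle, 10 mg/kg and 30 mg/kg in dose order within each class. Points are libraries and black bars are group medians. The medians of both doses lie between 76.7% and 88.5% in all 7 classes, and the highest red point of each class is replicate 5 of 30 mg/kg.

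Levels per length, as TPM (counts scaled to transcript length and library size), spread widely between subunits of one machine. In vehicle tumours TK1 was highest at 198 ± 7.92 TPM (SD, n = 6), followed by MCM7 at 184 ± 10.6 TPM, TYMS at 184 ± 14.8 TPM and PCNA at 175 ± 10.6 TPM, and the SDs of neighbours in that order overlapped. GINS3 at 10.5 ± 1.73 TPM, POLD3 at 11.0 ± 1.51 TPM and RPA3 at 12.1 ± 2.63 TPM were lowest, and did not differ beyond their spread. The class extremes in vehicle tumours were MCM7 and ORC1 (17.4 ± 3.14 TPM) in licensing, GINS2 (50.2 ± 4.18 TPM) and GINS3 in helicase activation, and PCNA and RFC3 (21.1 ± 3.36 TPM) in the clamp and loader. They were POLD2 (105 ± 4.69 TPM) and POLD3 among polymerases and primase, and LIG1 (111 ± 6.48 TPM) and RPA3 among the Okazaki fragment and single-strand genes. TK1 and RRM1 (58.3 ± 4.20 TPM) were the extremes in nucleotide supply, and CHAF1A (92.5 ± 11.1 TPM) and CHAF1B (31.8 ± 3.61 TPM) in chromatin copying. The MCM ring holds its subunits in equal number, yet in vehicle tumours their RNA ran from 43.9 ± 4.31 TPM for MCM6 to 184 ± 10.6 TPM for MCM7. In dosed tumours the same 2 genes were at 31.6 ± 11.9 and 134 ± 41.9 TPM at 10 mg/kg and at 35.3 ± 5.47 and 141 ± 17.1 TPM at 30 mg/kg.

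Levels at the 2 doses lay close together. Between 30 mg/kg and 10 mg/kg, 0 of 43 genes passed the threshold (0% of all genes tested), 16 of 43 had a log2 fold change under 0 (49.1% of all genes), and the median was 0.036 against 0.004 over all genes. None of the 43 was lower at an unadjusted p under 0.05, where 1.86% of all genes were. For CDT1 the fold between the doses was 1.00 with a 95% interval of 0.861 to 1.17, for FEN1 it was 0.976 (0.834 to 1.14), and for POLE it was 0.992 (0.853 to 1.15). PCNA had a fold of 1.16 (0.918 to 1.48) and POLD3 0.866 (0.663 to 1.13). In the test for a trend over vehicle, 10 and 30 mg/kg, taken as equal steps, 0 of 43 passed the threshold, where 0.49% of all genes did.

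Genes with and without a promoter word had overlapping fold changes. The 18 genes with an E2F word had a median log2 fold change of -0.346 at 10 mg/kg and -0.299 at 30 mg/kg, and the 19 matched genes without one had -0.272 and -0.233. At 10 mg/kg the sets ran from -0.594 to 0.063 and from -0.611 to 0.016. The difference between the sets was not tested. FEN1, whose printed stretch holds no such word, and CDT1, whose stretch holds 1, had nearly equal values. Both were named for the smallest p of their role, so this pair does not stand for the sets.

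Other genes of the same pathways had smaller shifts, and 0 genes of the 3 replication lists passed the threshold at either dose. Of 15 other licensing genes, which include the remaining origin recognition subunits and the kinase that fires origins, 5 were lower at an unadjusted p under 0.05 at 10 mg/kg and 3 at 30 mg/kg, with medians of -0.180 and -0.098. TICRR, which helps to fire licensed origins, was at 88.1, 96.8 and 113 CPM at 10 mg/kg and at 91.1, 97.1 and 104 CPM at 30 mg/kg, against 113, 117 and 130 CPM in vehicle tumours (adjusted p = 0.247 and 0.142). Its 30 mg/kg libraries did not overlap the vehicle libraries. Of 24 other fork genes, 8 and 3 were lower and 1 at each dose, POLD4, was higher, with medians of -0.247 and -0.154. Of all genes tested, 5.42% and 4.18% were higher at an unadjusted p under 0.05. DNA2, a nuclease for long flaps, had log2 fold changes of -0.47 ± 0.14 and -0.20 ± 0.13 at 10 and 30 mg/kg. CHTF18, part of an alternative clamp loader, had the smallest adjusted p of these lists, 0.0515 at 30 mg/kg, where it was at 62.0, 72.9 and 95.2 CPM against 90.5, 106 and 131 CPM in vehicle tumours. Of 23 other nucleotide genes, 3 and 2 were lower, where 4.08% and 3.72% of all genes tested were, with medians of -0.097 and -0.037. Among them DHODH, an enzyme of pyrimidine synthesis, had the smallest p at 30 mg/kg (log2 fold change -0.47 ± 0.17).

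**Figure D5:**
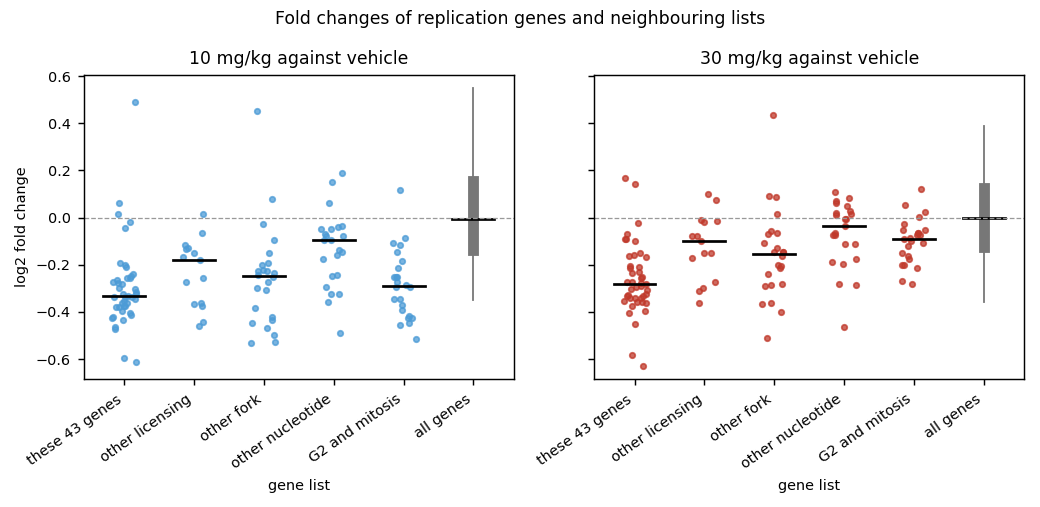
Log2 fold change of the 43 genes, of 3 lists of other replication genes and of a G2 and mitosis list (points, with the list median as a black bar), beside all 14074 genes tested (thick bar 25th to 75th percentile, thin bar 5th to 95th, black bar median), at 10 mg/kg on the left and 30 mg/kg on the right. The median of the 43 genes is the lowest of the lists in both panels, and the G2 and mitosis median is -0.290 on the left and -0.090 on the right.

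Genes of the next cell cycle phases were set beside them. Of 24 G2 and mitosis genes, 10 were lower at an unadjusted p under 0.05 at 10 mg/kg (4.08% of all genes) and 0 at 30 mg/kg (3.72% of all genes). Of the 24, 0 passed the threshold at either dose. Their medians were -0.290 at 10 mg/kg and -0.090 at 30 mg/kg, and the median of 30 mg/kg over 10 mg/kg was 0.187, against 0.036 for the 43 replication genes. BIRC5, a subunit of the chromosomal passenger complex, was at 89.8, 101 and 105 CPM at 10 mg/kg and at 102, 110 and 170 CPM at 30 mg/kg, against 119, 127 and 134 CPM in vehicle tumours. Its 10 mg/kg libraries did not overlap the vehicle libraries (adjusted p = 0.257), and at 30 mg/kg the adjusted p was 0.942. KIF23, a motor of the central spindle, had log2 fold changes of -0.43 ± 0.16 and -0.22 ± 0.15. By library the mitotic genes were at 35.7% to 93.8% of the vehicle mean at 10 mg/kg, lowest in the shallow replicate 2 and next at 76.4%, and at 81.2% to 113% at 30 mg/kg, against 95.3% to 108% in vehicle tumours.

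The count of genes past the threshold differed between fits, and every call against vehicle was in the same direction. With limma-voom and sample weights, in which replicate 2 of 10 mg/kg had a weight of 0.2416 and replicate 5 of 30 mg/kg 0.5556, 4 genes were lower past the threshold at 10 mg/kg (CDC6, MCM10, MCM2 and ORC6), where 1.61% of all genes were called, and 6 at 30 mg/kg (CDT1, FEN1, MCM2, MCM7, POLE and TYMS), where 2.03% were. DESeq2 gave 0 at 10 mg/kg and 2 at 30 mg/kg (CDT1 and POLE), where 1.27% of all genes were called. With both of those libraries left out, a setting chosen after the data were seen, 0 genes were past the threshold at 10 mg/kg and 9 at 30 mg/kg (CDT1, FEN1, MCM2, MCM5, MCM7, POLE, TK1, TYMS and UHRF1), where 1.51% of all genes were called. With each library's slope on GC content as a covariate, 2 genes (CDC6 and MCM2) were called at 10 mg/kg, where 0.924% of all genes were, and 5 (CDT1, FEN1, MCM2, POLD3 and PRIM1) at 30 mg/kg, where 1.81% were. With the slope on gene length 0 were called at 10 mg/kg and 3 (FEN1, MCM7 and POLE) at 30 mg/kg, where 0.881% of all genes were. Over the 32 alternative settings, 14 of the 43 genes passed the threshold against vehicle at either dose in at least 1 setting. The other 29 did so in none, though ORC1 passed in the trend test with sample weights. MCM4 and RRM1 passed in the test of any difference with both libraries left out. Every call against vehicle was at a lower level in dosed tumours.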

How the data were processed

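Total RNA from xenograft tumours was sequenced by the submitters as 18 libraries from a stranded total RNA kit, per the labels' protocols. The submitters' processing notes name STAR 2.4.2a and the builds hg19 and mm10. Not given in the sources used here are the quantification tool, the annotation and the separation of human from mouse reads, so reads of overlapping or near-identical genes, or of the host, may be shared. The authors deposited, per gene and library, expected counts (estimated, not whole) and TPM. Counts were rounded to whole numbers. Depth was 433989 in 1 library and at least 3435435 in the others.

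Genes past edgeR's default filter were fitted with TMM scaling and the robust quasi-likelihood test over all 3 groups (edgeR 4.0.16, R 4.3.3), adjusted by Benjamini-Hochberg over all 14074 genes at a threshold of 0.05. CPM are TMM-scaled, class levels are geometric means with 0.5 CPM added, and intervals are 95% from the fit's t distribution. Alternatives used limma 3.58.1 and DESeq2 1.42.0. The scripts recovered known changes in simulated data, but the share recovered at each size of change is not given here. Whether changes as small as the replication genes' median folds, 0.795 at 10 mg/kg and 0.824 at 30 mg/kg, would be called is not shown. Promoters came from RefSeq.

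The 43 genes and all other lists were chosen with earlier results of these data known. Given in full are the genes with the smallest p in each role at each dose and the largest positive fold changes, and in the other lists the smallest p at each dose. A result that this rule names is not reported here. MCM2, MCM7, PRIM1, RRM1, TK1 and POLD4 were added after their values were seen. Libraries were grouped by the labels, and replicate numbers were not used as pairs.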

Additional observations from a re-analysis of the deposited data

Results flagged for a closer look

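In 5 of 60 sets of 6 libraries, 1 library lay farther from its neighbour than Dixon's 95% critical value allows, and chance alone flags about 1 set in 20. PCNA was at 140 CPM in replicate 5 of 30 mg/kg, where the next library was at 93.3 CPM and the lowest at 74.4 CPM. In the same library the clamp and loader genes stood at 111% of the vehicle mean (next 90.6%, lowest 78.7%), and the nucleotide supply genes also at 111% (next 86.4%, lowest 72.6%). RPA3 was at 55.6 CPM in replicate 2 of 10 mg/kg, the shallow library, where the next was at 12.7 CPM. POLD3 was at 16.7 CPM in vehicle replicate 3, where the next was at 20.5 CPM and the highest at 22.8 CPM.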

How the results depend on the processing

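The direction of the median log2 fold change of the 43 genes against vehicle was the same in all 32 alternative settings at both doses. Leaving out 1 library in turn gave medians of -0.370 to -0.288 at 10 mg/kg, -0.364 to -0.242 at 30 mg/kg and -0.056 to 0.080 between the doses. Counts of genes past the threshold then ran from 0 to 0 at 10 mg/kg, 0 to 1 at 30 mg/kg, 0 to 1 for the trend and 0 to 1 for any difference, the 1 being FEN1 without replicate 5 of 30 mg/kg. Genes lower at an unadjusted p ran from 19 to 27 at 10 mg/kg and from 11 to 28 at 30 mg/kg, with 11, 12 and 13 when replicates 1, 2 and 4 of 30 mg/kg were left out. Genes without overlap ran from 4 to 11 at 10 mg/kg (9 without vehicle replicate 5, 7 without replicate 2 and 11 without replicate 5 of that dose). At 30 mg/kg they ran from 1 to 12 (12 without its replicate 5, 5 without vehicle replicate 3, and 2 each without vehicle replicate 2 or its own replicates 2 or 6), and were 4 with TPM. Leaving out a library tends to raise this count by itself, because fewer libraries must separate. Other replication genes past the threshold ran from 0 to 1 at each dose. In these fits 0.217% to 0.855% of all genes passed at 10 mg/kg and 0.427% to 1.29% at 30 mg/kg.

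With sample weights in limma-voom, 4 genes passed at 10 mg/kg, 6 at 30 mg/kg, 10 for the trend and 8 for any difference. In the same order 1.61%, 2.03%, 2.22% and 1.77% of all genes passed. With each library's slope on GC content as a covariate the counts of the 43 genes were 2, 5, 4 and 4. There 0.924%, 1.81%, 1.6% and 1.49% of all genes passed. With the slope on gene length the counts were 0, 3, 1 and 0, where 0.746%, 0.881%, 0.611% and 0.782% of all genes passed. DESeq2 gave 0, 2, 1 and 2, where 1.13%, 1.27%, 1.22% and 1.45% of all genes passed. Replicate 2 of 10 mg/kg and replicate 5 of 30 mg/kg were also both left out, a setting chosen after the data were seen. The counts of the 43 genes were then 0, 9, 9 and 9, where 0.959%, 1.51%, 1.3% and 1.31% of all genes passed. Between the doses 1 of the 43 was lower at an unadjusted p, where 1.66% of all genes were. Other replication genes past the threshold were 1 with DESeq2 and 4 with sample weights at 10 mg/kg, where 1.13% and 1.61% of all genes passed. Their 3 lists hold 15, 24 and 23 genes. At 30 mg/kg the other replication genes past it were 1 each with library totals alone, the 5 CPM filter, limma-voom and the length slope. In those fits 0.576%, 0.71%, 0.789% and 0.881% of all genes passed. They were 2 each with DESeq2, sample weights, the 2 groups alone, the GC slope and both libraries left out. There 1.27%, 2.03%, 1.4%, 1.81% and 1.51% of all genes passed. The cause of these changes was not tested.

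The labels give all groups replicate numbers 1 to 6, but deviations of same-numbered libraries correlated at -0.281 to 0.224, so the numbers were not taken as pairs. With the replicate block, 0 of the 43 genes passed at either dose. At an unadjusted p, 25 and 22 were lower at 10 and 30 mg/kg, where 3.58% and 3.14% of all genes were. Of all genes, 24 passed the threshold at 10 mg/kg (66 without the block) and 60 at 30 mg/kg (87 without). On the TPM scale the median of all genes at 10 mg/kg moved to -0.116 and that of the 43 genes to -0.443. Depth limits the low genes: at 20 counts for the median gene in 1 library, single values there are imprecise, and intervals cover the spread between libraries only.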
